A study of Mus musculus with 6 samples.

Results

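The 35 genes described here are markers of the cells that build brain vessels: 23 of endothelial cells, which line the vessels and form the blood-brain barrier, and 12 of mural cells, the pericytes and smooth muscle cells wrapped around them. They were taken by gene symbol from a table of 22584 genes, and all 35 were found. The table comes from RNA sequencing of brain tissue from mice labelled WT. In the AllPrep group (3 libraries) RNA was isolated with a co-extraction kit that also yields DNA and protein, and in the TRIzol group (3 libraries, the controls) with a phenol and guanidine reagent followed by precipitation. All libraries were made by T7-based amplification through in vitro transcription. The labels give no age, brain region or animal number and do not say that each library comes from its own animal. The p-values therefore set the difference between groups only against the variation of these 6 libraries within groups, which may be technical variation. The question is whether vascular RNA is measured at the same level after both extractions.

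Endothelial cells of brain capillaries are sealed to each other by tight junctions, so that nutrients have to enter the brain through transporters and many drugs are pumped back into the blood. Vascular endothelial growth factor and angiopoietin receptors keep these cells alive and quiescent. Pericytes share a basement membrane with capillary endothelium and help to hold the barrier closed, while smooth muscle cells of arteries and arterioles contract to set blood flow.

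Total counts per library were 43979970, 38552252 and 50937858 in AllPrep replicates 1 to 3, and 36395330, 38530661 and 44995120 in TRIzol replicates 1 to 3. Levels are given in CPM, a gene's counts scaled to the same total in every library. Fold changes are AllPrep over TRIzol on the log2 scale, from edgeR's quasi-likelihood test with TMM scaling, and a gene changed if its Benjamini-Hochberg adjusted p over all 16325 genes tested was below 0.05. Intervals are 95% confidence intervals of the log2 fold change from limma. In bulk tissue, fewer cells of a type and less RNA per cell cannot be told apart. As brain region is not given, the extraction method and the tissue taken for it cannot be told apart either.

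Of the 35 genes 34 had enough counts to be tested, and 1 of them, the phospholipid transfer protein gene Pltp, rose in AllPrep, while 33 did not pass. That is 2.94% of the tested members, beside 3.80% of all genes tested that passed in either direction (2.52% higher and 1.28% lower in AllPrep). At an unadjusted p below 0.05 there were 9 members (26.5%), beside 25.8% of all genes tested. The median log2 fold change was 0.17 over the members and -0.011 over all genes tested, and 25 of 34 members (73.5%) had positive values, beside 48.5% of all genes. The median was 0.10 without AllPrep replicate 1, 0.11 without TRIzol replicate 1, 0.10 without TRIzol replicate 2 and 0.26 without TRIzol replicate 3. The interval lay inside a 2-fold difference either way for 29 of the 34 members (85.3%), beside 79.8% of all genes tested. The 5 others were Vwf, Higd1b, Acta2, Myh11 and Cnn1. Summed over all 35 genes, levels were 1506, 1464 and 1401 CPM in the AllPrep libraries, against 1346, 1286 and 1479 CPM in the TRIzol libraries. The groups overlapped through TRIzol replicate 3. These sums are not vascular RNA alone, since other brain cells make some members too. Bsg, one of these, supplied 398.9, 390.5 and 393.3 CPM in AllPrep and 425.4, 393.3 and 395.1 CPM in TRIzol.

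**Figure D1:**
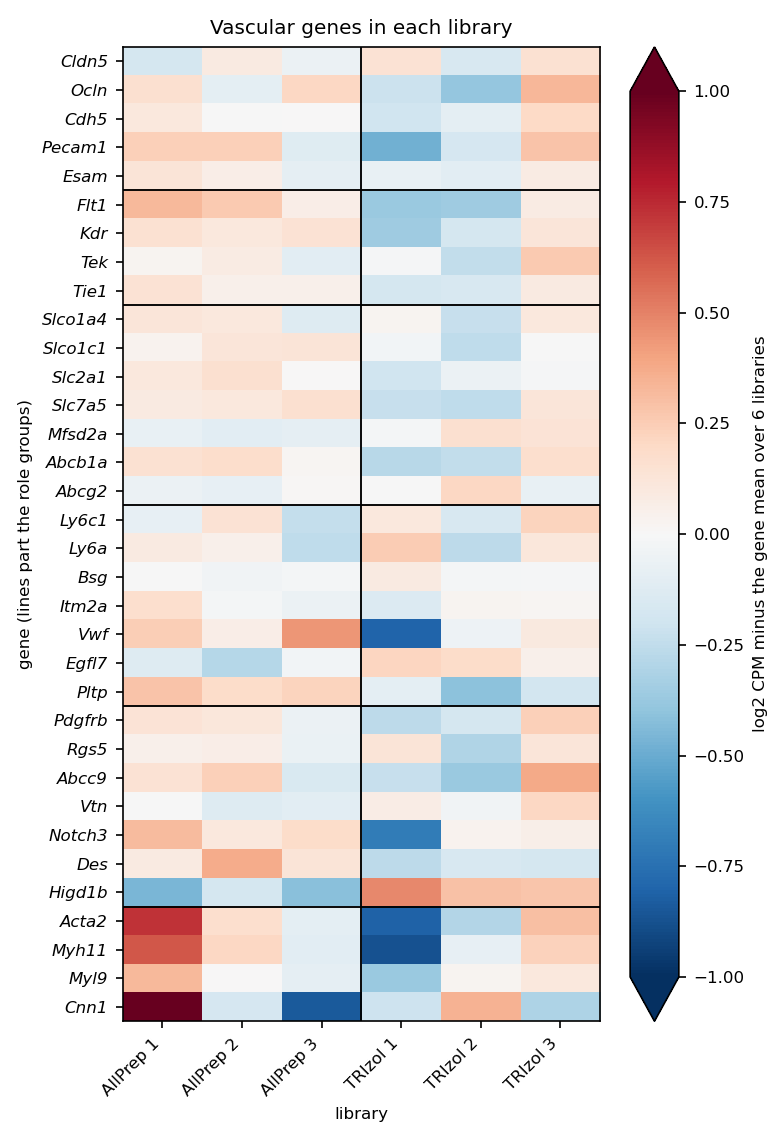
Colour shows log2 CPM minus the gene's mean over the 6 libraries, for the 34 tested vascular genes (rows, with lines between role groups) in each library (columns, AllPrep left of TRIzol). Each of the 4 tested smooth muscle genes is highest in AllPrep replicate 1, and TRIzol replicate 3 resembles the AllPrep libraries for many genes.

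To set levels of different genes side by side, CPM was divided by the summed length of all annotated exons in kilobases. Whether counts scale with this length in libraries made by T7-based amplification was not tested, so the ranking is approximate. On this scale Bsg, which encodes basigin, a membrane glycoprotein of brain endothelium that many other brain cells also make, stood far above the rest at 220.0 CPM per kilobase. It was followed by Vtn at 35.4, Slc2a1 at 26.4, Rgs5 at 25.3 and Itm2a at 22.8 CPM per kilobase. The ranges over 6 libraries overlapped for Slc2a1 (22.9 to 29.4), Rgs5 (20.5 to 27.5) and Itm2a (20.7 to 25.6), so these 3 were not separated. At the low end were Des at 0.59, Cnn1 at 0.292 and Tagln at 0.0776 CPM per kilobase. Tagln, which encodes the actin-binding protein transgelin of smooth muscle, had 5, 1 and 14 counts in the AllPrep libraries and 7, 8 and 5 counts in the TRIzol libraries, and was not tested.

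None of the 5 junction and adhesion genes passed, and their median log2 fold change was 0.10. Adjusted p-values ran from 0.46 to 0.79 in edgeR, and the count was 0 at an unadjusted p below 0.05 and by DESeq2 as well. For this and the later DESeq2 counts, DESeq2 was run on the table of 22584 genes and called 2001 of them. Cldn5 (ENSMUSG00000041378), the main claudin of the barrier's tight junctions, had 20.2, 24.3 and 21.9 CPM in the AllPrep libraries, against 25.2, 20.4 and 25.3 CPM in the TRIzol libraries. Both groups covered nearly the same range. Its log2 fold change was -0.06 (SE 0.12), with an interval of -0.34 to 0.23. Pecam1, an adhesion molecule at contacts between endothelial cells, had 25, 25 and 19.5 CPM in AllPrep and 15.2, 18.9 and 25.9 CPM in TRIzol. TRIzol replicate 1 was lowest and TRIzol replicate 3 highest of the 6, so the groups overlapped (log2 fold change 0.25, interval -0.18 to 0.72). The value was 0.09 without TRIzol replicate 1 and 0.48 without TRIzol replicate 3. Ocln, which encodes the tight junction protein occludin, Cdh5, the endothelial cadherin, and Esam, another adhesion molecule, had log2 fold changes of 0.19, 0.09 and 0.10, and fits without 1 library gave 0.04 to 0.44 for Ocln, 0.01 to 0.22 for Cdh5 and 0.06 to 0.17 for Esam. Together the 5 genes summed to 84.9 ± 3.98 CPM in AllPrep and 80.9 ± 12.1 CPM in TRIzol (SD, n = 3 each), a difference smaller than the spread in TRIzol.

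Of the 4 receptor genes 0 passed in edgeR, 2 had an unadjusted p below 0.05 and DESeq2 called 1. Log2 fold changes were positive for all 4, with a median of 0.24, although Tek was at -0.01 with library size alone as the scaling and at -0.02 with length and GC trends removed. Flt1 (ENSMUSG00000029648), a receptor that binds vascular endothelial growth factor, had 97.9, 93.8 and 82.1 CPM in the AllPrep libraries and 60.5, 61.1 and 82.7 CPM in the TRIzol libraries. TRIzol replicates 1 and 2 lay below all AllPrep libraries, while TRIzol replicate 3 was level with AllPrep replicate 3. The log2 fold change of 0.46 had an SE of 0.13 and an adjusted p of 0.089 in edgeR. Without TRIzol replicate 3 it was 0.62 and passed (adjusted p = 0.047), and DESeq2 on all 6 libraries also called it (adjusted p = 0.021). With length and GC trends removed it was 0.23 (adjusted p = 0.292). Over all 15 alternatives its adjusted p ran from 0.021 to 0.29. Kdr, the main signalling receptor for the same factor, averaged 19.7 ± 0.339 CPM in AllPrep and 16.5 ± 2.80 CPM in TRIzol (SD, n = 3 each), with a log2 fold change of 0.29 (adjusted p = 0.19 in edgeR), which was 0.44 without TRIzol replicate 3 and 0.16 with length and GC trends removed. Tek, the angiopoietin receptor, and Tie1, its partner, had log2 fold changes of 0.02 and 0.19.

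None of the 7 transporters of the barrier passed, and for all 7 the interval lay inside a 1.5-fold difference either way (median log2 fold change 0.21). Intervals this narrow were found for 61.8% of the tested members and 56.4% of all genes tested. At an unadjusted p below 0.05 the count was 3, and DESeq2 called 0. Slc2a1 (ENSMUSG00000028645), the glucose transporter of the barrier, had 99.2, 103.0 and 92.5 CPM in AllPrep and 80.3, 88.5 and 91.5 CPM in TRIzol. The groups did not overlap, but AllPrep replicate 3 and TRIzol replicate 3 were close together, and the log2 fold change of 0.21 (SE 0.08, interval 0.03 to 0.39) did not pass (adjusted p = 0.14 in edgeR). Slc7a5, which carries large neutral amino acids, had 71.8, 72.6 and 75.1 CPM in AllPrep, against 57.5, 56.4 and 73.3 CPM in TRIzol. As for Flt1, TRIzol replicate 3 was the exception among the controls, and the log2 fold change was 0.26 (adjusted p = 0.18 in edgeR), or 0.40 without that library.

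Slco1c1, a carrier of thyroid hormone, had 53.6, 56.9 and 57.0 CPM in AllPrep and 51.3, 43.7 and 52.1 CPM in TRIzol. AllPrep was higher in 3 of 3 libraries, without overlap (log2 fold change 0.22, adjusted p = 0.17 in edgeR; 0.14 without TRIzol replicate 2). Mfsd2a, which carries lysophospholipids with omega fatty acids into the brain and holds down vesicle traffic across endothelium, ran the other way, with 17.7, 17.3 and 17.5 CPM in AllPrep and 18.4, 20.9 and 20.5 CPM in TRIzol. Here AllPrep was lower in 3 of 3 libraries (log2 fold change -0.15, adjusted p = 0.29 in edgeR). The drug efflux pumps Abcb1a and Abcg2 had log2 fold changes of 0.26 and -0.06, and the organic anion carrier Slco1a4 had 0.09, and for each of these the groups overlapped. The Abcb1a value was 0.42 without TRIzol replicate 3. Reads of Abcb1a and Slco1a4 may be shared with close paralogs, and how such reads were counted is not given in the sources used here.

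Among the 7 other endothelial genes, Pltp (ENSMUSG00000017754) rose and 6 did not pass. Pltp encodes a secreted protein that moves phospholipids between lipoproteins, and cells other than endothelium make it too. It had 57.7, 53.6 and 55.3 CPM in the AllPrep libraries, against 44.2, 35.5 and 41.7 CPM in the TRIzol libraries. The lowest AllPrep library was above the highest TRIzol library, with means of 55.5 ± 2.07 CPM in AllPrep and 40.5 ± 4.49 CPM in TRIzol (SD, n = 3 each). The fitted difference was 1.41-fold, or 0.49 ± 0.09 (SE) on the log2 scale, with an adjusted p of 0.039 in edgeR. The value stayed between 0.40 and 0.57 in 15 alternatives. The call was lost when any of the 6 libraries was left out (adjusted p from 0.051 without TRIzol replicate 1 to 0.118 without AllPrep replicate 1). Epithelial markers of the choroid plexus, given further down, were also higher in each AllPrep library, and their part in the Pltp result was not tested.

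Vwf (ENSMUSG00000001930), the clotting factor stored in endothelial granules, had 23.2, 20.5 and 26.7 CPM in AllPrep and 11.2, 18.9 and 21.0 CPM in TRIzol. TRIzol replicate 1 was far below the rest, and TRIzol replicate 3 was above AllPrep replicate 2, so the groups overlapped. The log2 fold change was 0.50 ± 0.22 (SE), with an adjusted p of 0.21 in edgeR. It was 0.27 without TRIzol replicate 1, 0.68 without TRIzol replicate 3 and 0.22 with length and GC trends removed. Egfl7, which encodes a protein that endothelial cells secrete into their matrix, was lower in AllPrep in 3 of 3 libraries, at 11.1, 9.99 and 11.9 CPM, against 14.1, 13.8 and 12.6 CPM in TRIzol, and did not pass (log2 fold change -0.26, adjusted p = 0.18 in edgeR). Bsg had 398.9, 390.5 and 393.3 CPM in AllPrep and 425.4, 393.3 and 395.1 CPM in TRIzol, with TRIzol replicate 1 above the other 5 libraries and an interval of -0.16 to 0.16. The membrane protein gene Itm2a and the surface antigen genes Ly6c1 and Ly6a, which lie in a family of similar genes and may share reads with them, had log2 fold changes of 0.09, -0.08 and -0.05.

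**Figure D2:**
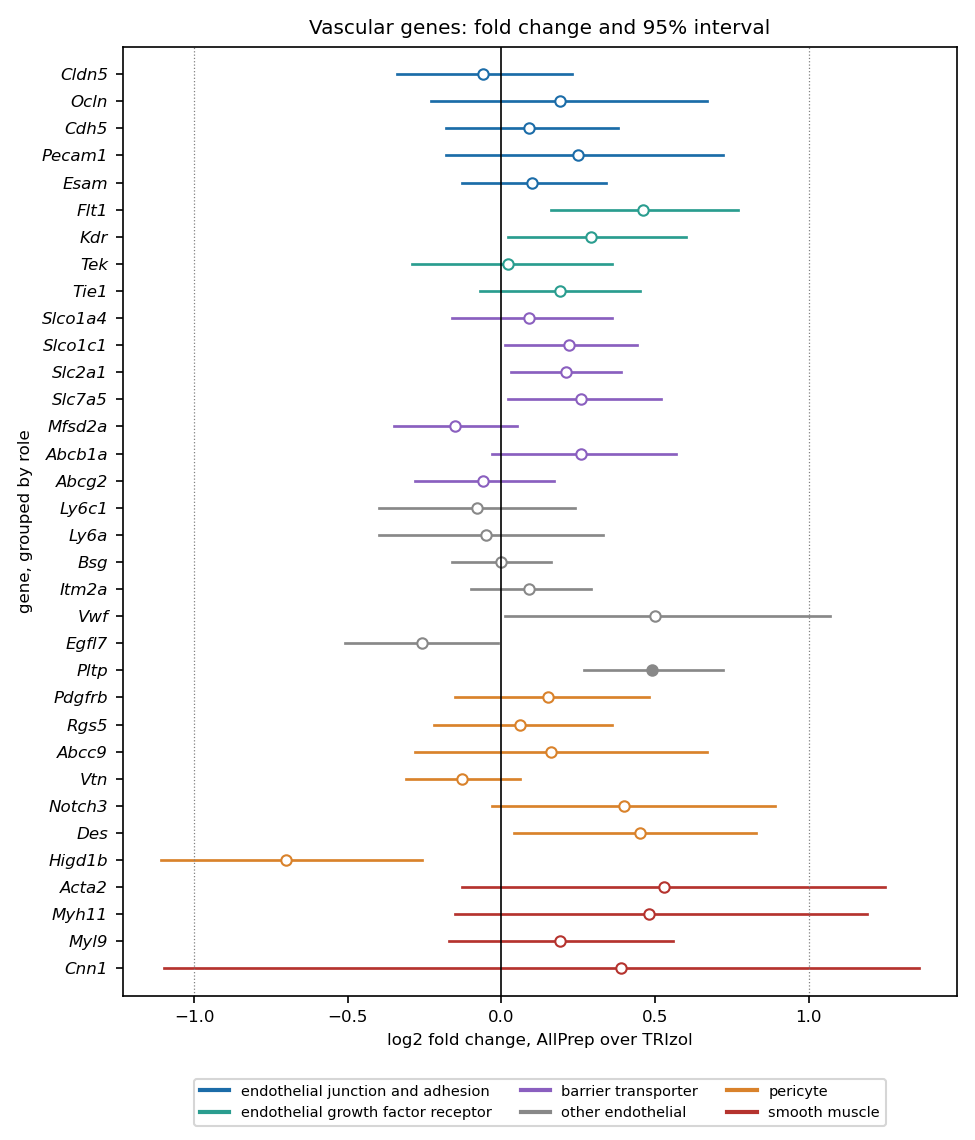
Points are log2 fold changes, AllPrep over TRIzol (x axis), of the 34 tested vascular genes (y axis), and bars are 95% confidence intervals from limma (n = 3 libraries a group). The filled point, Pltp, passed over all genes; dotted lines mark a 2-fold difference, and the intervals of Vwf, Higd1b, Acta2, Myh11 and Cnn1 reach past one.

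None of the 7 pericyte genes passed in edgeR (2 at an unadjusted p below 0.05, 0 by DESeq2). Their median log2 fold change was 0.15, and their summed level was nearly equal, at 251.8 ± 11.6 CPM in AllPrep and 250.8 ± 30.1 CPM in TRIzol (SD, n = 3 each). Rgs5 (ENSMUSG00000026678), a regulator of G protein signalling and the member of this group with the most counts, had 118.7, 120.1 and 109.6 CPM in AllPrep and 125.2, 93.2 and 124.6 CPM in TRIzol. TRIzol replicate 2 alone was low, and the interval of the log2 fold change ran from -0.22 to 0.36. Pdgfrb, the receptor for platelet-derived growth factor that recruits pericytes, Abcc9, a regulatory subunit of potassium channels, and Vtn, which encodes the matrix protein vitronectin, had log2 fold changes of 0.15, 0.16 and -0.13.

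Groups did not overlap for 3 pericyte genes. Notch3, a receptor also made by smooth muscle cells, had 20.3, 17.5 and 18.5 CPM in AllPrep, against 10, 16.7 and 17.0 CPM in TRIzol (log2 fold change 0.40, adjusted p = 0.24 in edgeR). TRIzol replicate 1 was far below the other 5 libraries, and without it the value was 0.19. Des, which encodes the filament protein desmin, had 2.34, 2.85 and 2.40 CPM in AllPrep and 1.81, 1.95 and 1.93 CPM in TRIzol (log2 fold change 0.45, adjusted p = 0.17 in edgeR). Higd1b (ENSMUSG00000020928), a pericyte marker of a hypoxia-inducible gene family, was lower in AllPrep in 3 of 3 libraries. It had 1.41, 1.74 and 1.45 CPM in AllPrep and 2.80, 2.44 and 2.42 CPM in TRIzol, the most negative log2 fold change of the tested members at -0.70 (SE 0.19, interval -1.11 to -0.26). It rested on 62 to 109 counts in a library and did not pass (adjusted p = 0.077 in edgeR).

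Over all role groups, the libraries of both methods did not overlap for 8 members, 5 higher and 3 lower in AllPrep. That is 23.5% of the tested members, beside 34.0% of all genes tested (13.4% higher and 20.6% lower in AllPrep).

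None of the 4 tested smooth muscle genes passed in edgeR, 0 had an unadjusted p below 0.05 and DESeq2 called 0. All 4 log2 fold changes were positive, with a median of 0.44. Libraries of one method differed widely. Myh11 (ENSMUSG00000018830), the smooth muscle myosin heavy chain, had 28.6, 21.5 and 17.3 CPM in AllPrep and 10.1, 17.5 and 21.8 CPM in TRIzol. Acta2 (ENSMUSG00000035783), the smooth muscle actin, had 28.0, 19.0 and 15.8 CPM in AllPrep and 9.62, 13.8 and 20.9 CPM in TRIzol. For both genes AllPrep replicate 1 was highest, TRIzol replicate 1 lowest, and TRIzol replicate 3 above AllPrep replicate 3. Myh11 had a log2 fold change of 0.48 ± 0.28 (SE) with an adjusted p of 0.32, and Acta2 one of 0.53 ± 0.30 (SE) with an adjusted p of 0.31, both in edgeR. Without AllPrep replicate 1, TRIzol replicate 1 or TRIzol replicate 3 the value for Myh11 was 0.28, 0.23 or 0.74, and that for Acta2 0.28, 0.30 or 0.87. Reads of Acta2 may be shared with other actin genes of near-identical sequence. Myl9, a myosin light chain, averaged 13.3 ± 2.07 CPM in AllPrep and 11.9 ± 2.01 CPM in TRIzol (SD, n = 3 each), and it too was highest in AllPrep replicate 1 and lowest in TRIzol replicate 1. Cnn1, which encodes calponin, had 76, 24 and 18 counts in AllPrep and 22, 36 and 25 counts in TRIzol. Its log2 fold change was 0.39 and turned to -0.48 without AllPrep replicate 1, against 0.78 without AllPrep replicate 3. The 5 genes summed to 74.0, 53.7 and 45.3 CPM in AllPrep and 30.1, 45.1 and 56.8 CPM in TRIzol. The means were 57.7 ± 14.7 CPM in AllPrep and 44.0 ± 13.4 CPM in TRIzol (SD, n = 3 each), so the difference was smaller than the spread in AllPrep. The ratio of the means was 1.31, and it ran from 1.13 to 1.53 as single libraries were left out.

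Genes of differentiated smooth muscle are known targets of serum response factor, which binds the CArG box. Since Acta2, Myh11 and Myl9 were each highest in AllPrep replicate 1, next highest in TRIzol replicate 3 and lowest in TRIzol replicate 1, the promoters of this group are shown as RefSeq gives them on build GRCm38.p6, from 250 bases before the transcription start to 50 bases after it. The sequence table held 24 of the 35 members and, of this group, Myl9 (chr2:156775214-156775513, plus strand), Acta2 (chr19:34255324-34255623, minus strand) and Cnn1 (chr9:22099003-22099302, plus strand). Capitals mark a perfect CArG box, a pattern that reads the same on both strands.
Myl9: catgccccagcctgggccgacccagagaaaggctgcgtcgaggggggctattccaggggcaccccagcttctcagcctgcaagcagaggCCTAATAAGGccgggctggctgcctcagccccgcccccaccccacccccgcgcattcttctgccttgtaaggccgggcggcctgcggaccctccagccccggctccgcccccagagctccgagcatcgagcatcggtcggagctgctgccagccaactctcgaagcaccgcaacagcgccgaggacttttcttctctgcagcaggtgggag
Acta2: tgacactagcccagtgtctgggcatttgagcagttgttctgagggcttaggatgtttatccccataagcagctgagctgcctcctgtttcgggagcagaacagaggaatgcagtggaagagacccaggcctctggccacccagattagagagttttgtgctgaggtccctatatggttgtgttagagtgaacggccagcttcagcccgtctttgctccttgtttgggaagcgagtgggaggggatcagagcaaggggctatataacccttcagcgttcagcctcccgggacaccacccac
Cnn1: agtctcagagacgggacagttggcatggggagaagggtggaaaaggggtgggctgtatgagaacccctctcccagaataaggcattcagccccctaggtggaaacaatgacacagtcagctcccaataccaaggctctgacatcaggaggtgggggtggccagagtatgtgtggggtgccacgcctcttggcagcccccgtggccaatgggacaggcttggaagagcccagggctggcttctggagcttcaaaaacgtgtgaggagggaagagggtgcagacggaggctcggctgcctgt
The match in Myl9 began 161 bases before the start, and the Acta2 and Cnn1 windows held no perfect box. Only perfect boxes were counted, so a window without one may still hold an imperfect box. A match was held by 1.63% of all 32851 RefSeq promoters listed, and of the 30 promoters listed for members 1 did. A match of letters is a description of the window and says nothing of binding in these samples.

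**Figure D3:**
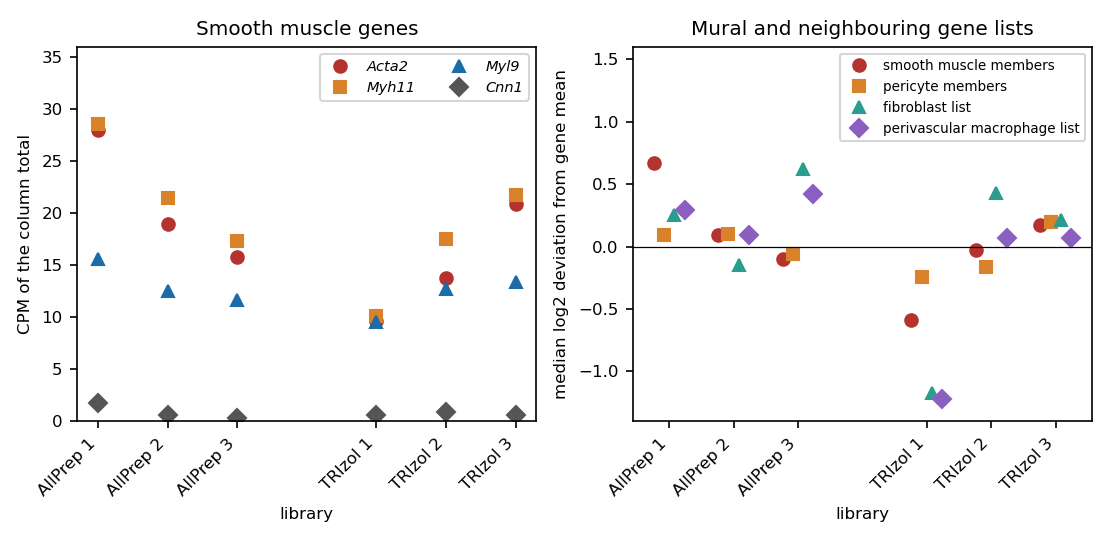
Left, CPM of the 4 tested smooth muscle genes (y axis) in each library (x axis, AllPrep left of TRIzol); right, the median log2 deviation from each gene's mean over 6 libraries (y axis) for mural members and for lists of neighbouring cells. Acta2 and Myh11 lie between 9.62 and 28.6 CPM, and TRIzol replicate 1 is low in the smooth muscle, fibroblast and macrophage lists.

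Markers of cells that lie next to large vessels varied between libraries in part as the smooth muscle genes did. The 10 listed genes of meningeal and perivascular fibroblasts had a median log2 deviation, taken against each gene's own mean, of 0.25, -0.15 and 0.62 in AllPrep replicates 1 to 3 and of -1.17, 0.43 and 0.21 in TRIzol replicates 1 to 3. Perivascular macrophage genes had 0.29, 0.09 and 0.42 in AllPrep and -1.22, 0.07 and 0.07 in TRIzol. The smooth muscle members had 0.67, 0.09 and -0.10 in AllPrep and -0.59, -0.03 and 0.17 in TRIzol. TRIzol replicate 1 was thus lowest in all 3 lists, while AllPrep replicate 3 was highest for fibroblasts and macrophages and AllPrep replicate 1 for smooth muscle. The part of fibroblasts and macrophages in the smooth muscle values was not tested. None of the 10 fibroblast genes or of 5 macrophage genes passed in edgeR, with 1 of each list at an unadjusted p below 0.05, and DESeq2 called 1 and 0 of them. The fibroblast genes with the most counts were Pdgfra, a receptor that oligodendrocyte precursors also make, and Dcn, the matrix proteoglycan decorin, with log2 fold changes of 0.49 and 0.42. For the macrophage receptors Mrc1 and Cd163 these were 0.45 and 0.84.

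The vascular genes also differed between libraries of one method. AllPrep replicate 1 was the highest of all 6 libraries for 12 of 34 members (35.3%, beside 14.4% of all genes tested), and TRIzol replicate 3 for 9 (26.5%, beside 14.9%). TRIzol replicate 3 was the highest of the 3 TRIzol libraries for 23 of 34 members (67.6%), beside 29.5% of all genes tested. TRIzol replicate 1 was the lowest of all 6 libraries for 15 members (44.1%, beside 21.8% of all genes), TRIzol replicate 2 for 10 (29.4%, beside 14.4%) and TRIzol replicate 3 for 0 (beside 12.1%). For endothelial members the median log2 deviation was 0.10, 0.08 and 0.00 in AllPrep and -0.10, -0.16 and 0.11 in TRIzol. For mural members it was 0.14, 0.10 and -0.10 in AllPrep and -0.26, -0.09 and 0.20 in TRIzol. Both cell classes thus ranked TRIzol replicate 3 above the other TRIzol libraries. Some other lists did so too: TRIzol replicates 1 to 3 were at -0.21, -0.12 and 0.08 for the further endothelial genes, at -0.24, 0.01 and 0.17 for astrocyte genes and at -0.04, -0.10 and 0.12 for junction partners. In other lists TRIzol replicate 3 was the lowest TRIzol library. TRIzol replicates 1 to 3 were at 0.12, 0.03 and -0.02 for neurons and at 0.31, 0.35 and 0.15 for oligodendrocytes. For choroid plexus they were at -1.91, -1.49 and -2.08, and for microglia at -0.04, -0.04 and -0.05.

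Longer members tended to have the more positive fold changes. Across the 34 members log2 fold change and log2 exon length had a Pearson correlation of 0.54 and a Spearman correlation of 0.47, and across 16219 tested genes with a known length these were 0.16 and 0.24. These are correlations across genes of the same 6 libraries, which are not independent replicates, and they are given as a description. Without Higd1b, the shortest member at 847 bases, the Pearson value was 0.43 (n = 33). With Flt1 (13504 bases) and Vwf (16064 bases) also left out it was 0.30 (n = 31). Of the 17 longer members 16 had positive values (median 0.19), and of the 17 shorter members 9 did (median 0.09). Genes at large shifted with length too: in 8 length classes the median ran from -0.13 in the shortest class to 0.16 in the longest. GC content showed no such relation (Pearson 0.08). Once length and GC trends were taken out, the members' median was 0.14, against -0.05 over all genes tested.

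**Figure D4:**
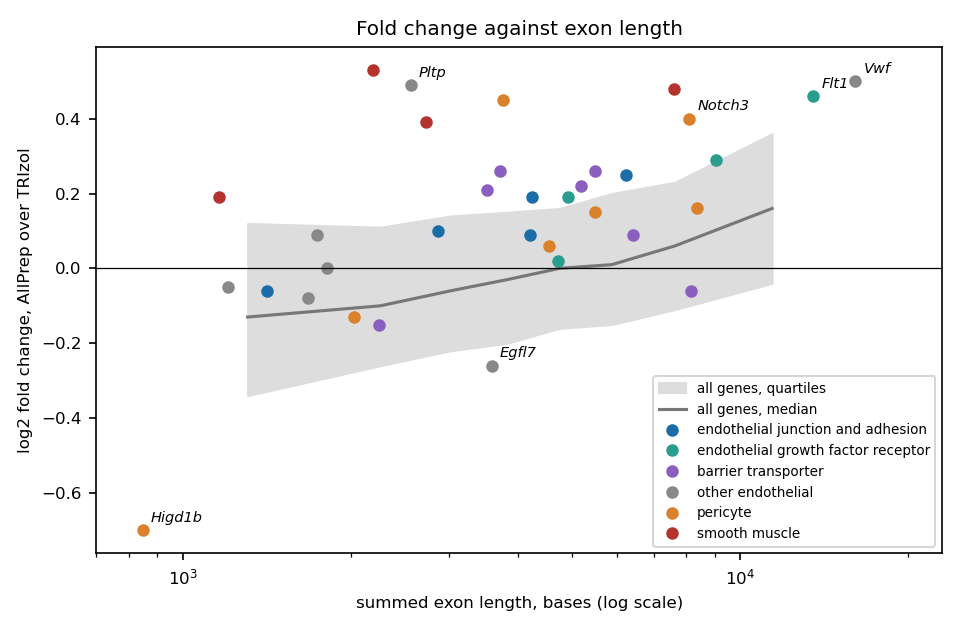
Log2 fold change, AllPrep over TRIzol (y axis), against summed exon length in bases (x axis, log scale) for the 34 tested vascular genes, coloured by role; the grey line and band are the median and quartiles of all genes in 8 length classes. Higd1b, the shortest member, has the lowest value, and Flt1 and Vwf, the longest, lie at 0.46 and 0.50.

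Other genes of the same cells and pathways were read from lists, which were chosen with earlier results of these data known. Over all genes tested, 2.52% passed higher and 1.28% lower in AllPrep. Of 20 further endothelial genes 1 fell and 19 stayed short of the threshold, with a median of 0.23 on the log2 scale. Values were positive for 18 (90.0%, beside 48.5% of all genes tested) and negative for 2. At an unadjusted p below 0.05 there were 6, beside 25.8% of all genes tested, and DESeq2 called 3. Without overlap, 6 were higher and 1 was lower in AllPrep, beside 13.4% and 20.6% of all genes tested. The gene that fell was Cd34 (ENSMUSG00000016494), which encodes a sialomucin of endothelial and progenitor cells, with 39.3, 46.0 and 30.3 CPM in AllPrep and 72.6, 63.1 and 60.4 CPM in TRIzol (log2 fold change -0.73, adjusted p = 0.048 in edgeR). The groups were well apart, although the call was lost when any library was left out (adjusted p from 0.0635 to 0.126). Ptprb, an endothelial phosphatase that acts on Tek, had 62.6 ± 1.35 CPM in AllPrep and 43.8 ± 10.3 CPM in TRIzol (SD, n = 3 each, adjusted p = 0.083 in edgeR). Plvap, which marks the fenestrated vessels of the choroid plexus and similar sites, had 6.58 ± 0.299 CPM in AllPrep and 6.07 ± 1.34 CPM in TRIzol (SD, n = 3 each). Of 18 further mural genes 16 were tested and none passed (median 0.02, with 8 positive and 8 negative values; unadjusted p below 0.05 for 2, and 1 called by DESeq2). Cspg4, the proteoglycan of pericytes and oligodendrocyte precursors, averaged 29.7 ± 1.07 CPM in AllPrep and 24.5 ± 2.82 CPM in TRIzol (SD, n = 3 each, adjusted p = 0.11 in edgeR). Synpo2, an actin-binding protein gene, had 24.5, 31.9 and 12 CPM in AllPrep and 8.79, 9.68 and 79.8 CPM in TRIzol, with TRIzol replicate 3 far above the rest.

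Of 17 growth signal genes 2 rose. The share to set beside this and the next counts is the 2.52% of all genes tested that rose. Nrp2, which encodes a coreceptor for vascular endothelial growth factors and semaphorins that neurons also make, had 78.3, 61.6 and 103.9 CPM in AllPrep and 19.7, 32.7 and 40.3 CPM in TRIzol, a fitted 2.7-fold difference (adjusted p = 0.039 in edgeR). Notch1, the endothelial Notch receptor, averaged 26.7 ± 1.63 CPM in AllPrep and 16.7 ± 2.97 CPM in TRIzol (SD, n = 3 each, adjusted p = 0.039 in edgeR). S1pr1, the receptor for sphingosine phosphate, and Vegfa, the growth factor itself, had log2 fold changes of 0.01 and -0.23 and did not pass. In the Wnt pathway that induces the barrier, 1 of 14 genes rose, the coreceptor Lrp6, at 71.3 ± 1.55 CPM in AllPrep and 58.1 ± 2.98 CPM in TRIzol (SD, n = 3 each, adjusted p = 0.046 in edgeR). Ctnnb1, which encodes beta-catenin, did not pass (log2 fold change 0.26). Of 12 other transporters and receptors of the barrier 3 rose by small steps: the taurine carrier Slc6a6 (log2 fold change 0.39), the insulin receptor Insr (0.34) and the cationic amino acid carrier Slc7a1 (0.29), with adjusted p-values of 0.039, 0.039 and 0.046 in edgeR. Slc39a10, a zinc carrier with the most counts of that list, did not pass (0.21). Of 10 junction partners 0 passed in edgeR, 1 had an unadjusted p below 0.05 and DESeq2 called 0. Tjp1, the scaffold of tight junctions, had a log2 fold change of 0.21, and Ctnna1, a catenin of adherens junctions, -0.05. Calls of Nrp2, Notch1, Lrp6, Slc6a6, Insr and Slc7a1 were each lost when any library was left out (adjusted p from 0.0502 to 0.139). With length and GC trends removed, Nrp2 still passed at 1.23, while Notch1 was at 0.47, Slc6a6 at 0.26, Lrp6 and Insr at 0.11 and Slc7a1 at 0.09, and these 5 did not pass. Lrp6, Insr and Slc7a1 also did not pass with library size alone (adjusted p = 0.0573, 0.051 and 0.0603 in edgeR), nor Lrp6 and Slc7a1 with no filter on low counts (0.0543 and 0.0579). All of these genes are also expressed outside vessels.

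Markers of other cells that border vessels are given beside these values. The 10 choroid plexus genes all rose, and their summed level was 754.2, 627.4 and 1272.5 CPM in AllPrep, against 19.0, 27.4 and 22.0 CPM in TRIzol, most of it from Ttr, the transthyretin gene, at 781.5 ± 299 CPM in AllPrep and 14.1 ± 2.64 CPM in TRIzol (SD, n = 3 each). Kl, which encodes klotho, averaged 35.3 ± 16.3 CPM in AllPrep and 4.31 ± 1.98 CPM in TRIzol (SD, n = 3 each). Without TRIzol replicate 2 only Ttr still passed (adjusted p = 0.0384 in edgeR), and over all alternatives the adjusted p of the 10 genes reached at most 0.0777. Of blood cell genes, the globin gene Hba-a1 had 9.96, 9.57 and 5.85 CPM in AllPrep and 12.9, 6.41 and 13.2 CPM in TRIzol. Hbb-bt, another globin gene, had a log2 fold change of -0.69 (adjusted p = 0.21 in edgeR). The 6 blood cell genes found summed to 11.4 ± 2.25 CPM in AllPrep and 14.8 ± 4.82 CPM in TRIzol (SD, n = 3 each), with S100a8, S100a9 and Hba-a2 at 0 to 4 counts in every library, and Hbb-bs was not matched by symbol. Their part in the vascular values was not tested.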

How the data were processed

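RNA was sequenced from brain of WT mice after AllPrep or TRIzol extraction, 3 libraries each; the method label of the second group is a control, and its reagent comes from the extraction protocol in the labels. The authors deposited 1 table of raw read counts per gene. Per the submitters' processing notes, reads were processed on build GRCm39 with STAR 2.7.9a and featureCounts, and cutadapt, FastQC 0.11.9 and limma 3.60.6 are also named; how strand and multiple mapping were set is not stated there. Of 22692 rows, 108 repeated one of 94 identifiers with identical counts and were removed, leaving 22584. Between 64.2% and 70.9% of counts from 1 to 20 were even, so a fit on halved counts was among the alternatives. Replicates of a group differed by more than counting noise, with a chi-square of 13.6 or more per degree of freedom, and counted as 6 samples.

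Genes passing edgeR 4.0.16's expression filter (R 4.3.3) were scaled by TMM and tested by quasi-likelihood with Benjamini-Hochberg adjustment; the SE is the log2 fold change divided by the root of F. Intervals came from limma 3.58.1 with a prior count of 2. DESeq2 1.42.0, other scalings and filters, each library left out, a replicate block, and length and GC trends (mgcv 1.9.3; chosen after seeing the data) were alternatives. Deviations used log2(CPM + 0.1). Exon length and GC came from GENCODE vM21, on GRCm38 and so another build than the counts. The edgeR steps were tested on simulated data. Members and lists were chosen with earlier results of these data known. Given per library were members that passed, those whose groups did not overlap and, in each role, the most abundant and, among those with a mean of at least 1 CPM, the one with the largest absolute fold change; named from other lists were genes that passed and the 2 most abundant of each, except some that are not reported here. Plvap was chosen after its values were seen. Counts limit precision for Tagln, Cnn1, Des and Higd1b.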

Additional observations from a re-analysis of the deposited data

How the results depend on the processing

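The members' median log2 fold change was positive in all 15 alternatives, and from 0.10 to 0.26 as single libraries were left out. Without single libraries the role medians ran from 0.04 to 0.22 (junctions), 0.17 to 0.36 (receptors), 0.14 to 0.26 (transporters), -0.03 to 0.05 (other endothelial), 0.01 to 0.32 (pericytes) and 0.18 to 0.66 (smooth muscle). Over all genes 621 of 16325 tested passed. DESeq2, run on the table of 22584 genes, called 2001, the fit with a replicate block 236, and fits without 1 library 2 to 205. Of members, DESeq2 called 2 (Pltp and Flt1), the block 0 (Pltp adjusted p = 0.0594) and fits without 1 library 0 to 1 (Flt1 without TRIzol replicate 3). Same-numbered libraries had correlations of -0.048, 0.006 and 0.16 of their deviations, within the range of -0.167 to 0.198 for other pairs. With 3 libraries a group these values cannot decide whether the numbers pair the samples, and the labels do not say. The share of passing genes that were higher in AllPrep was 66.3%, and 52.9% with library size alone, 39.1% with length and GC trends removed and 82.6% with the block. Log2 fold changes that turned in sign were all of genes that did not pass. Without AllPrep replicate 1 they were Cldn5 (0.02), Bsg (0.00) and Cnn1 (-0.48); without AllPrep replicate 2, Tek (-0.03); without AllPrep replicate 3, Ly6c1 (0.00) and Ly6a (0.05). Without TRIzol replicate 1 they were Ly6a (0.07) and Bsg (0.04); without TRIzol replicate 2, Tek (-0.10), Slco1a4 (-0.01), Abcg2 (0.02) and Rgs5 (-0.08); without TRIzol replicate 3, Ly6c1 (0.00). Tek was -0.01 with library size alone and -0.02 with trends removed, where Ly6a was 0.01 and Bsg 0.02. Bsg was 0.01 with DESeq2's size factors, 0.01 in DESeq2's test and 0.00 with counts halved. Cnn1 had no value with at least 1 CPM in 3 libraries required. For these genes the fits without 1 library ran from -0.16 to 0.02 (Cldn5), -0.10 to 0.16 (Tek), -0.01 to 0.17 (Slco1a4), -0.11 to 0.02 (Abcg2), -0.20 to 0.00 (Ly6c1), -0.19 to 0.07 (Ly6a), -0.03 to 0.04 (Bsg), -0.08 to 0.13 (Rgs5) and -0.48 to 0.78 (Cnn1). The cause was not tested. With 3 libraries a group and no stated animals, small differences may go undetected.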

Other observations

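Beside 2.52% of all genes tested, 1 of 8 listed genes rose for astrocytes, whose endfeet cover brain vessels. This was Slc1a3, a glutamate transporter, at 529.2 ± 17.7 CPM in AllPrep and 406.2 ± 25.3 CPM in TRIzol (SD, n = 3 each, adjusted p = 0.037 in edgeR). The call was lost when any library was left out (adjusted p from 0.0583 to 0.113), and with length and GC trends removed (log2 fold change 0.31, adjusted p = 0.0637). Slc1a2, the other main glutamate transporter of astrocytes, had 2842, 3136 and 3161 CPM in AllPrep and 2349, 2203 and 2616 CPM in TRIzol and did not pass (log2 fold change 0.39, adjusted p = 0.071 in edgeR). Of 6 microglia genes 0 passed in edgeR, 3 had an unadjusted p below 0.05 and DESeq2 called 2. Csf1r, the receptor that microglia need to survive, had a log2 fold change of 0.22. The sum of the 6 was 286.3 ± 9.07 CPM in AllPrep and 259.1 ± 2.35 CPM in TRIzol (SD, n = 3 each). The 6 oligodendrocyte genes were each lower in AllPrep without overlap, beside 20.6% of all genes tested, at a median log2 fold change of -0.47. None passed in edgeR, 5 had an unadjusted p below 0.05 (beside 25.8% of all genes tested) and DESeq2 called 0. Their median log2 deviation was -0.06, 0.02 and -0.79 in AllPrep replicates 1 to 3 and 0.31, 0.35 and 0.15 in TRIzol replicates 1 to 3, so AllPrep replicate 3 was by far the lowest. The myelin gene Mbp had a log2 fold change of -0.45. Of 6 neuronal genes 0 passed in edgeR, 2 had an unadjusted p below 0.05 and DESeq2 called 2. The synaptic genes Snap25 and Syt1 had log2 fold changes of -0.39 and -0.03.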
